A study of Mus musculus with 6 samples.

Results

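A set of 10 transcription factor genes that mark and pattern the diencephalon, hypothalamus and midbrain were followed across the libraries of this series: Irx1, Irx2, Irx3, Irx5, Barhl2, Six3, Six6, Tcf7l2, Gbx2 and En2. They are 10 of the 22851 gene symbols in the deposited count table, and all 10 symbols were found there. The genes were picked by name with the knockout against wild-type difference of these same libraries already known, so that difference is given below as a description and without a test of its own. The cells were radial glial cells, the progenitors along the brain ventricles, taken from brains of newborn mice (P0 to P3) on a C57BL/6J background. They were grown in medium with serum and then turned towards multiciliated ependymal cells in serum-free DMEM for 6 days before mRNA sequencing. One group was wild type (WT) and the other carried an Edf1 knockout made with CRISPR/Cas9, with 3 libraries each, which the submitters describe as biological replicates. The labels do not name the knockout allele, the brain region dissected, or the number of animals or lines behind a library.

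Patterning factors give the regions of the early neural tube their identity. Irx genes encode Iroquois homeodomain factors, which are active behind the zona limitans, the signalling boundary inside the diencephalon, and are arranged in clusters of paralogs in the genome. Six3 and Six6 act in front of it, in the anterior forebrain, hypothalamus and eye, and Six3 is known to repress Wnt genes there and to be needed for the maturation of ependymal cells. Barhl2 marks the caudal forebrain. Tcf7l2 is the DNA-binding partner of β-catenin in Wnt signalling and marks the thalamus and habenula, while Gbx2 and En2 are genes of the thalamus and of the midbrain-hindbrain boundary.

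Total counts ran from 13071766 (WT replicate 2) to 28087006 (knockout replicate 3), and 14243 genes had enough counts to be tested. Edf1 itself had 80.2 to 85.9 CPM (counts scaled to a common library depth) in WT and 9.84 to 13.2 CPM in the knockout (log2 fold change -2.85, adjusted p = 5.46e-09 by edgeR's quasi-likelihood test). WT replicate 2 stood apart from the other WT libraries on the second principal component of log2 CPM, which held 16.1% of the variance, and results that move without it are given with it left out. All 15 ependymal markers examined, among them Foxj1, Mcidas and Ccno, were counted in these cells, and all 15 were called lower in the knockout, where a gene is called at an adjusted p under 0.05 over all tested genes. A positive log2 fold change means a higher level in the knockout throughout.

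Upstream sequence was at hand for 7 of the 10 genes in RefSeq (GRCm38.p6). The windows of 250 bases before a RefSeq start site are shown for Barhl2, Six3 and Irx2, whose levels were higher in every knockout library than in any WT library: Barhl2 at chr5:106458167-106458416 (minus strand), Six3 at chr17:85620584-85620833 (plus strand) and Irx2 at chr13:72628570-72628819 (plus strand). The Six3 window precedes a start inside the gene span of GENCODE, in which another transcript begins farther upstream. Each is written 5′ to 3′ on the strand of its gene, and capitals mark matches to the motifs described after the sequences.
Barhl2: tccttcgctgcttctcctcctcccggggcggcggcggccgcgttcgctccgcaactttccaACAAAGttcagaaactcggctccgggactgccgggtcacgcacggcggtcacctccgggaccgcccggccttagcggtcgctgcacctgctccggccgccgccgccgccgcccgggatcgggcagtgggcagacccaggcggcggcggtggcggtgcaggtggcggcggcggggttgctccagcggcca
Six3: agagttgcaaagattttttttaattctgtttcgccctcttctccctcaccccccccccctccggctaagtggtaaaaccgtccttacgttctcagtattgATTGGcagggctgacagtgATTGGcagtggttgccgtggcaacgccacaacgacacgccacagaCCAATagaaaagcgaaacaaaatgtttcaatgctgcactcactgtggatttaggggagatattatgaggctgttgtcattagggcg
Irx2: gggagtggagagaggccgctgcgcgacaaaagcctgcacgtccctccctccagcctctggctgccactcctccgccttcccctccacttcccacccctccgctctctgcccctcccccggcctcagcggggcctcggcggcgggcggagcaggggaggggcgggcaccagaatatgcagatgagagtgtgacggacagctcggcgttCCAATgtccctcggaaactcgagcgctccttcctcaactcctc
Barhl2 and Irx2 have GC-rich windows, with 74.8% and 68.4% G or C, against a median of 52.4% over 32851 such windows of the RefSeq table. The Six3 window has 48.8%, and its last bases overlap the first exon of the antisense gene Gm28528. The CpG dinucleotide occurs 36 times in the Barhl2 window, 19 times in that of Irx2 and 10 times in that of Six3, against a median of 6. Searched on both strands were the TCF/LEF motif (CTTTGA or CTTTGT), the OTX motif TAATCC, the homeodomain motif TAATTA and the CCAAT box, and no base in a window lay in 2 matches. Barhl2 holds 1 TCF/LEF match, as do 27.6% of all windows. Six3 holds 3 CCAAT boxes and Irx2 holds 1, a box that 33.8% of all windows have. TAATTA occurs in none of the 7 genes' windows and in 4.8% of all windows. TAATCC occurs in 6.3% of all windows and, among the 7 genes, in a second Tcf7l2 window at an internal start. The RefSeq window of Irx3 lies in an annotated 5′ UTR exon of GENCODE and is not shown. A match is a description of letters and was not tested as a binding site.

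Levels were compared between the genes per kilobase of exon, with the exons of all GENCODE M21 transcripts of a gene joined. The transcripts made in these cells were not determined, so the order depends on this choice of length. In WT, Tcf7l2 (4.89 ± 0.040 CPM per kb, SD, n = 3) and Six3 (4.59 ± 0.31) were the highest, and their libraries overlapped. The Irx genes followed, from Irx3 (2.15 ± 0.26) through Irx1 (1.96 ± 0.48) and Irx5 (1.68 ± 0.11) to Irx2 (1.12 ± 0.22). Among these 4, only the step from Irx5 to Irx2 had WT libraries that lay apart. En2 (0.61 ± 0.027), Barhl2 (0.43 ± 0.20), Gbx2 (0.27 ± 0.087) and Six6 (0.13 ± 0.059) closed the order, each overlapping the next. In the knockout the order differed in 2 places. Six3 (6.18 ± 0.45 CPM per kb) lay above Tcf7l2 (5.09 ± 0.074) with no overlap between the libraries, and Barhl2 (1.62 ± 0.23) lay above En2 (0.62 ± 0.077), again with no overlap.

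**Figure D1:**
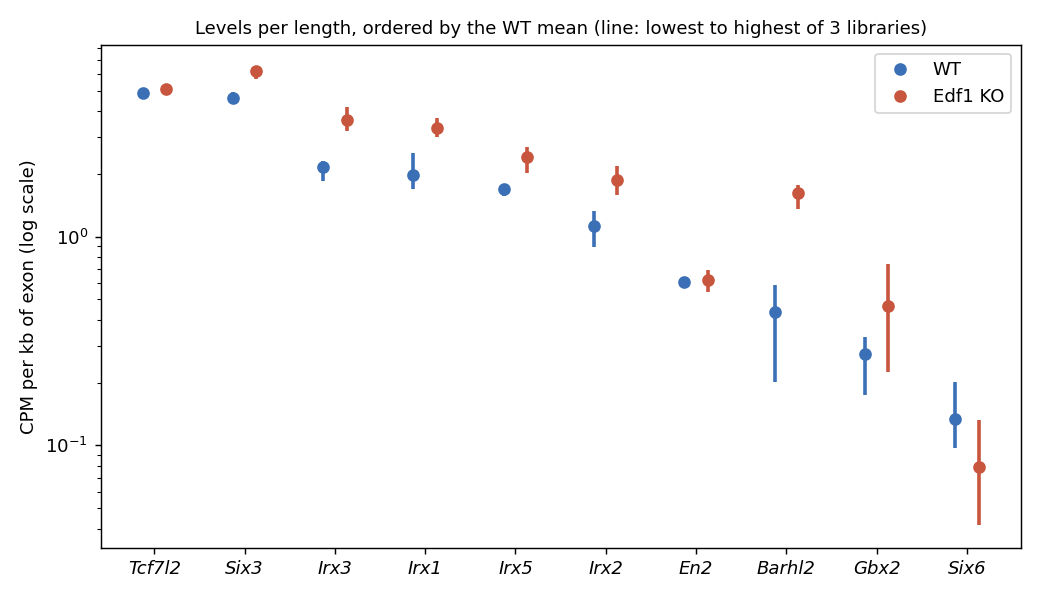
Level of each of the 10 patterning genes in CPM per kilobase of exon, on a log axis, with genes ordered by their WT mean. Points are means of 3 libraries and lines run from the lowest to the highest library. On this scale Six3 passes Tcf7l2 and Barhl2 passes En2 in the knockout. In CPM without scaling by length, Six3 stays below Tcf7l2.

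The 10 genes did not behave alike between the genotypes. The 4 Irx genes, Barhl2 and Six3 were higher in every knockout library than in any WT library. Tcf7l2 was also without overlap, but its knockout mean was only 1.04-fold that of WT. En2, Gbx2 and Six6 overlapped. Of the 9 genes that passed the filter on low counts, 6 were called higher and 0 lower over all genes tested, where 12.7% of the 14243 tested genes were called higher and 14.2% lower (26.9% in either direction). The knockout lay above WT without overlap for 7 of the 9, against 21.3% of all tested genes, while 43.3% did not overlap in either direction. DESeq2 and limma voom also called 0 lower, and 0 of the 9 were lower at an unadjusted p under 0.05 by edgeR. Because the genes were chosen on this contrast, nothing is read from these shares. The same holds for the counts by the other tools, which used the same libraries. The bulk libraries cannot tell more cells of a region from more RNA per cell.

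**Figure D2:**
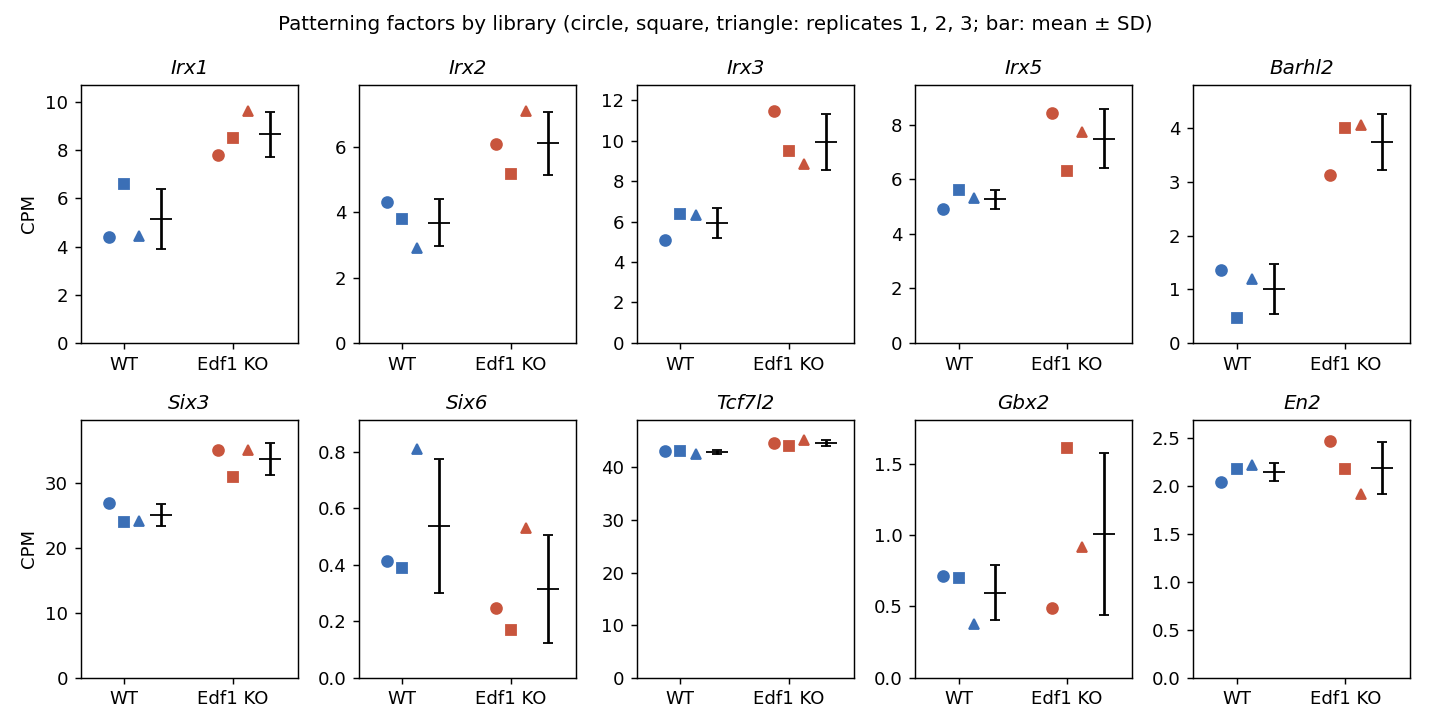
CPM of the 10 patterning genes in each library, with the mean and SD of 3 libraries beside them; each panel has its own vertical axis starting at 0. The Irx genes, Barhl2 and Six3 separate by genotype, Tcf7l2 separates by a narrow margin, and Six6, Gbx2 and En2 overlap.

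Irx1 lies on chromosome 13 (71957921 to 71963723, minus strand, GRCm38). It had 4.41, 6.60 and 4.43 CPM in WT replicates 1, 2 and 3 and 7.81, 8.52 and 9.63 CPM in knockout replicates 1, 2 and 3. WT replicate 2 was the highest of the WT libraries and still below every knockout library. The log2 fold change was 0.80 (SE 0.17), and 0.98 without WT replicate 2. Irx2, 665.1 kb from Irx1 in the same cluster (72628820 to 72634198, plus strand), had 4.33, 3.81 and 2.92 CPM in WT libraries and 6.09, 5.18 and 7.12 CPM in knockout libraries. Its log2 fold change was 0.73 (SE 0.18), and knockout replicate 3 held its highest value. Without that library it was 0.60 and Irx2 was no longer among the genes called.

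Irx3 and Irx5 belong to the other Iroquois cluster, on chromosome 8, and lie 555.6 kb apart. Irx3 (91798525 to 91802067, minus strand) had 5.09, 6.37 and 6.32 CPM in WT libraries and 11.5, 9.47 and 8.85 CPM in knockout libraries, a log2 fold change of 0.75 (SE 0.15). Irx5 (92357625 to 92376286, plus strand) had 4.90, 5.59 and 5.30 CPM in WT libraries and 8.42, 6.30 and 7.75 CPM in knockout libraries. The gap between the genotypes was narrowest for Irx5 among the 4, between WT replicate 2 and knockout replicate 2. Its log2 fold change was 0.52 (SE 0.15), and it was not called without replicate 1 of WT (0.47), or without knockout replicates 1 (0.44) or 3 (0.49). Over the 4 genes the fold between the group means ran from 1.42 to 1.68. Their summed level was 20.02 ± 2.04 CPM in WT libraries and 32.2 ± 2.38 CPM in knockout libraries (SD, n = 3), with 18.7, 22.4 and 19.0 CPM in the WT and 33.8, 29.5 and 33.4 CPM in the knockout libraries. The third gene of each cluster was near or at 0 counts. Irx4, beside Irx2, had 0 counts in all 6 libraries, and Irx6, beside Irx5, had 0 counts in WT libraries and 0, 3 and 1 in knockout libraries. Few 31-mers of the Irx transcripts occur in another gene, from 0.2% for Irx1 to 6.1% for Irx3, whose exons share 4.5% of their bases with the antisense gene Irx3os.

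Barhl2 (chromosome 5, 106452523 to 106458166, minus strand) showed the widest fold of the 10 genes. It was counted 36, 6 and 22 times in WT libraries and 51, 72 and 115 times in knockout libraries, or 1.36, 0.47 and 1.19 CPM against 3.14, 4.01 and 4.07 CPM. WT replicate 2, the shallowest library, gave the lowest value. The log2 fold change was 1.80 (SE 0.28), and 1.55 without WT replicate 2. Pooled over libraries, 238 counts in the knockout stood against 64 in WT, a depth-scaled ratio of 3.45.

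Six3 and Six6 encode close relatives but were present at very different levels. Six3 (chromosome 17, 85613608 to 85629302, plus strand) had 26.9, 23.9 and 24.1 CPM in WT libraries and 35.1, 30.8 and 35.05 CPM in knockout libraries. Each knockout library was above each WT library, with a log2 fold change of 0.43 (SE 0.082). Of its exon bases, 5.0% are shared with the opposite-strand genes Six3os1 and Gm28528. Six6 (chromosome 12, 72939892 to 72944899, plus strand) had 11, 5 and 15 counts in WT libraries and 4, 3 and 15 in knockout libraries and was too low to be fitted. Its mean was 0.54 ± 0.24 CPM in WT libraries and 0.31 ± 0.19 CPM in knockout libraries, with overlapping libraries, so a difference was not detectable at this depth. In knockout replicate 2 it was at the floor of 3 counts.

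Tcf7l2 (chromosome 19, 55741820 to 55933654, plus strand) was the steadiest of the 10 genes. It had 43.2, 43.04 and 42.5 CPM in WT libraries and 44.6, 44.01 and 45.3 CPM in knockout libraries. The highest WT library lay just under the lowest knockout library, and the log2 fold change was 0.057 (SE 0.058). The 5 other genes whose log2 CPM followed Tcf7l2 most closely over the 6 libraries were Ttll3 (Pearson r = 0.995), Mastl (0.992), Fubp1 (0.983), Malt1 (0.982) and Cspg4 (0.979). They are the highest among all tested genes over 6 libraries that share their genotype split, and are given as a description.

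En2 (chromosome 5, 28165694 to 28172166, plus strand) had 2.03, 2.18 and 2.22 CPM in WT libraries and 2.46, 2.17 and 1.91 CPM in knockout libraries. The WT libraries lay inside the range of the knockout libraries, and the log2 fold change was 0.015 (SE 0.21), with a sign that changed without WT replicate 1 (-0.027) or knockout replicate 1 (-0.073). Gbx2 (chromosome 1, 89927956 to 89931179, minus strand) had 19, 9 and 7 counts in WT libraries and 8, 29 and 26 in knockout libraries, or 0.72, 0.70 and 0.38 CPM against 0.49, 1.62 and 0.92 CPM. Knockout replicate 1 fell among the WT libraries while knockout replicates 2 and 3 were above them. The log2 fold change was 0.74 (SE 0.44), and 0.31 without knockout replicate 2. The antisense gene D130058E05Rik covers 43.5% of the Gbx2 exon bases, so these counts cannot be assigned to Gbx2 alone if strand was not used.

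Neighbouring genes were taken by their position, and their values played no part in the choice of the 10 factors. The nearest gene on each side that the table holds gave 16 genes outside the 10, of which 9 were tested. Of the 9, 1 was called higher and 0 lower, beside 12.7% of all tested genes called higher and 14.2% lower, and nothing is read from this count. The called gene was Zfp326, 536.7 kb from Barhl2, which rose from 71.1 ± 3.11 to 94.2 ± 6.89 CPM (SD, n = 3, log2 fold change 0.41, adjusted p = 0.000611 by edgeR). Fto, 130.1 kb from Irx3, had 75.96 ± 3.76 CPM in WT libraries and 76.9 ± 2.14 CPM in knockout libraries (log2 fold change 0.014, SE 0.058). Cnpy1 and Insig1, on either side of En2, had log2 fold changes of 0.92 (SE 0.36) and -0.18 (SE 0.071) and did not pass (adjusted p = 0.0770 and 0.0720 by edgeR). The remaining 5 tested neighbours were Zfp644, Camkmt, Adamts16, Vti1a and Agap1, with log2 fold changes from -0.40 to 0.12. The median over the 9 tested neighbours was 0.0093, against 0.0029 over all tested genes.

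Paralogs of the 10 factors were mostly too low to test, with 4 of 12 tested. Six5, a homeobox gene with broad expression, rose from 10.7 ± 0.49 to 14.8 ± 1.32 CPM (SD, n = 3, log2 fold change 0.47, SE 0.10, adjusted p = 0.00446 by edgeR). Tcf7, another DNA-binding partner of β-catenin, had 8.17, 7.15 and 9.14 CPM in WT libraries and 11.7, 12.8 and 12.3 CPM in knockout libraries and rose by 0.58 on the log2 scale (SE 0.11, adjusted p = 0.00228 by edgeR). Tcf7l1, which encodes the family member known mainly as a repressor, had 34.9 ± 1.51 CPM in WT libraries and 36.95 ± 1.25 CPM in knockout libraries and was not called (adjusted p = 0.417 by edgeR). Six4 was not called either, at 1.31 ± 0.37 and 2.08 ± 0.38 CPM (adjusted p = 0.0898 by edgeR). Lef1 had 1 to 6 counts in a library. En1, the paralog of En2, had 0 to 2 counts in WT libraries and 2 to 6 in knockout libraries. Among the other untested paralogs, Six2, Barhl1 and Gbx1 had at most 7 counts in any library.

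Other factors of the same brain regions, listed by region from general knowledge, held single genes called in each direction. The counts below stand beside 12.7% of all tested genes called higher and 14.2% called lower, and nothing particular to a list is read from them. In the hypothalamus and eye field list, 15 of 19 genes had any count, 6 were tested, 3 rose and 1 fell, with a median log2 fold change of 0.59. Foxb1, a factor of the mammillary hypothalamus and caudal diencephalon, had 7, 4 and 7 counts in WT libraries and 28, 10 and 50 in knockout libraries. It rose by 2.12 on the log2 scale (SE 0.48, adjusted p = 0.00597 by edgeR), with knockout replicate 2 the lowest of the knockout libraries, and 14% of its exon bases are shared with an opposite-strand gene. Vax1, a factor of the ventral forebrain and optic stalk, rose from 3.29 ± 0.50 to 5.53 ± 0.73 CPM (SD, n = 3, adjusted p = 0.00988 by edgeR). Tbx2 rose from 5.30 ± 0.76 to 7.78 ± 1.54 CPM (log2 fold change 0.54, adjusted p = 0.0335 by edgeR) and was not called without replicate 1 of WT (0.48), or without knockout replicates 1 (0.58) or 2 (0.37). Lhx2, a LIM homeodomain factor of the telencephalon and eye field, fell from 101.8 ± 0.61 to 83.5 ± 2.96 CPM (log2 fold change -0.28, adjusted p = 0.00179 by edgeR). The eye field gene Rax had 5 to 18 counts in a library and was not tested.

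In the list for the thalamus, prethalamus and zona limitans, 13 of 20 genes were tested, 2 rose and 1 fell (26.9% of all tested genes were called in either direction), and the median log2 fold change was 0.099. Nkx2-2, which marks a ventral stripe along the diencephalon and midbrain, had 6.63, 6.68 and 6.43 CPM in WT libraries and 9.53, 10.1 and 9.81 CPM in knockout libraries, a rise by 0.58 on the log2 scale (SE 0.11), with an adjusted p of 0.00208 by edgeR. Its exons share 9.7% of their bases with the antisense gene Nkx2-2os. Gata2 rose from 0.57 ± 0.21 to 1.25 ± 0.24 CPM (log2 fold change 1.10, SE 0.36, adjusted p = 0.0388 by edgeR), and this call held without WT replicate 2 and in none of the other 5 fits that left out a library, whose values were 0.83 to 1.33, nor by DESeq2 (adjusted p = 0.0693). Dlx2, a factor of the prethalamus and of the ventral telencephalon, fell from 4.44 ± 0.55 to 2.58 ± 0.53 CPM (log2 fold change -0.74, adjusted p = 0.0163 by edgeR), but was not called without knockout replicate 1 (-0.61). The thalamic genes Lhx9 and Olig3 had at most 2 and 10 counts in a library, and Sox14 had 0 in all 6.

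In the midbrain and midbrain-hindbrain organiser list, 7 of 24 genes were tested, 2 rose and 1 fell, and the median log2 fold change was 0.066. Otx2, the factor that sets forebrain and midbrain apart from hindbrain and that is also made by choroid plexus, had 16.6, 16.2 and 16.7 CPM in WT libraries and 26.4, 26.8 and 26.3 CPM in knockout libraries. It rose by 0.68 on the log2 scale (SE 0.074, adjusted p = 2.93e-05 by edgeR), with SDs of 0.25 and 0.28 CPM in WT and knockout. Its paralog Otx1 rose from 15.03 ± 0.74 to 17.9 ± 0.99 CPM (log2 fold change 0.25, adjusted p = 0.0465 by edgeR), a call that held in 1 of 6 fits that left out a library, the one without WT replicate 2, and was lost with the replicate number as a block (adjusted p = 0.0641 by edgeR) and by DESeq2 (adjusted p = 0.0992). Meis2 fell from 143.02 ± 9.58 to 125.3 ± 7.57 CPM (log2 fold change -0.19, adjusted p = 0.0423 by edgeR) and likewise was called only without WT replicate 2 among those 6 fits, at values of -0.23 to -0.14. It was not called with library size alone (-0.18). Of the untested genes of this list, Fgf8, Wnt1, Pax5 and Pax7 had 0 to 3 counts in a library. Pax2 had 5, 4 and 10 counts in WT libraries and 10, 10 and 14 in knockout libraries, with overlap in CPM. Pax8 had 2, 0 and 0 in WT and 5, 3 and 4 in knockout libraries, and its CPM lay above WT without overlap.

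The partners and targets of TCF factors such as Tcf7l2 included genes that rose and none that fell by edgeR. Of 28 partners and Wnt feedback targets, 24 were tested, 9 rose and 0 fell, beside 12.7% of all tested genes called higher and 14.2% lower. The median log2 fold change was 0.18 against 0.0029 over all tested genes. Among the partners, the β-catenin, Bcl9, Pygo, Tle and Ctbp genes, only Pygo1 was called (log2 fold change 0.32, adjusted p = 0.0485 by edgeR). Of the 24, 13 lay above WT without overlap and 2, Ctbp1 and Myc, lay below it, though neither was called. Over all tested genes, 21.3% lay above WT without overlap and 22.1% below it. By edgeR 0 of the 24 were lower at an unadjusted p under 0.05, and DESeq2 and limma voom called 0 and 0 lower. Sp5, a zinc finger gene switched on by Wnt signalling, had 4, 1 and 1 counts in WT libraries and 33, 32 and 50 in knockout libraries, a pooled ratio of 17.8 with an exact 95% interval of 7.92 to 49.4 for counting error. Every knockout library was above every WT library, and the adjusted p was 1.73e-05 by edgeR. Rnf43, which encodes a ubiquitin ligase that removes Wnt receptors, had 8, 2 and 2 counts in WT libraries and 12, 15 and 19 in knockout libraries (pooled ratio 3.55, interval 1.85 to 7.37, adjusted p = 0.0112 by edgeR). Apcdd1, which encodes a membrane inhibitor of Wnt signalling, rose from 2.30 ± 0.13 to 6.17 ± 0.60 CPM (log2 fold change 1.40, SE 0.17, adjusted p = 5.71e-05 by edgeR). Axin2, the general feedback target, rose from 33.1 ± 1.24 to 45.7 ± 0.43 CPM (log2 fold change 0.46, adjusted p = 0.000159 by edgeR), and Ctnnb1, which encodes β-catenin, had 1427 ± 7.93 and 1478 ± 15.1 CPM and was not called (adjusted p = 0.384 by edgeR). Of the Ctnnb1 exon bases, 15.1% are shared with the opposite-strand gene Ulk4. Axin2 and Ctnnb1 were named after their values had been seen.

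**Figure D3:**
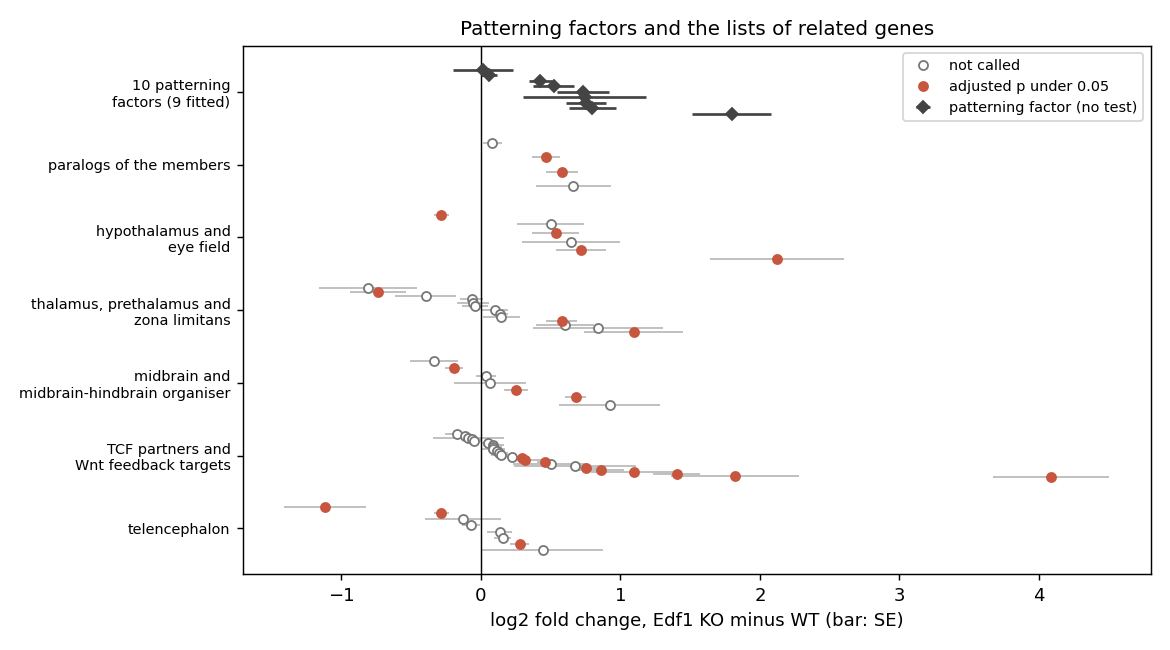
Log2 fold change of Edf1 knockout minus WT with its SE for the 9 fitted patterning genes and for the tested genes of 6 lists, where filled circles have an adjusted p under 0.05 by edgeR. Barhl2 lies farthest to the right of the patterning genes at 1.80, and Sp5 at 4.09 is the highest of the listed genes.

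Across the 5 lists of paralogs, brain regions behind the telencephalon and TCF partners, 54 different genes were tested, 18 rose and 3 fell. These counts stand beside 12.7% of all tested genes called higher and 14.2% called lower. The list for the telencephalon, the part of the forebrain in front of these regions, had 8 of 16 genes tested, with 1 called higher and 2 lower, beside 12.7% and 14.2% of all tested genes, and a median log2 fold change of 0.032. Emx1, a cortical factor, fell from 2.69 ± 0.43 to 1.22 ± 0.53 CPM (log2 fold change -1.12, adjusted p = 0.0133 by edgeR), and was not called without knockout replicate 1 (-0.90) or 3 (-1.05). Nr2f2 rose from 33.4 ± 1.76 to 40.4 ± 0.68 CPM (log2 fold change 0.28, adjusted p = 0.00905 by edgeR) and was not called without WT replicate 1 (0.24), and 7.5% of its exon bases lie under an opposite-strand gene. The other gene that fell was Lhx2, which is in both lists. Rax, Lhx9, Olig3, Sox14, Fgf8, Wnt1, Pax2, Pax5, Pax7 and Pax8 were also named after their values had been seen. Whether the lists differ from one another was not tested.

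Markers of some other cell types moved with the genotype in the same libraries, and those of others overlapped. The counts of called markers below stand beside 12.7% of all tested genes called higher and 14.2% called lower. The summed level of 12 meningeal fibroblast and mural markers was 845.6 to 906.9 CPM in WT libraries and 1053 to 1170 CPM in knockout libraries, with 8 of 9 tested genes called higher. The 10 microglial markers summed to 2047 to 2212 and 1308 to 1354 CPM, with 9 called lower, and the 15 ependymal markers to 2600 to 2913 and 1433 to 1526 CPM. For the pituitary, where Six3 and Six6 are also made, 17 markers summed to 18.4 to 20.98 and 29.7 to 36.4 CPM, with 3 of 5 tested genes called higher and 1 lower. The 3 called higher were Prl, Pomc and Cga. Prl, a pituitary hormone gene, had 0 counts in WT libraries and 198, 175 and 131 in knockout libraries. Lhb, which made up most of the WT sum, was the gene called lower, from 14.7 ± 1.30 to 5.59 ± 0.53 CPM (adjusted p = 4.30e-06 by edgeR). The pituitary factors Pou1f1, Lhx3, Pitx1, Tbx19 and Hesx1 had 0 to 4 counts in a library, and Fshb and Gnrhr were at 0 in all libraries. For hypothalamic neurons, 15 markers summed to 63.02 to 69.8 and 30.6 to 34.4 CPM, and of the 4 tested genes Hdc alone was called, and it was lower. Hdc, which encodes histidine decarboxylase, made up most of that sum. Without it the other 14 markers summed to 10.6 to 12.5 CPM in WT libraries and 12.04 to 13.5 CPM in knockout libraries, with overlap. The other tested markers Agrp, Npy and Pmch had log2 fold changes of 0.51, 0.19 and 0.41 and were not called, and the median of the 4 was 0.30. Of these only Agrp lay above WT without overlap. Among the untested markers, Hcrt had 4, 6 and 7 counts in WT libraries and 0, 0 and 1 in knockout libraries. Ghrh had 9, 5 and 6 in WT and 3, 2 and 3 in knockout libraries. The CPM of both lay below WT without overlap, and the other untested markers overlapped. Tac2 was at 0 in all libraries and Oxt, Avp and Trh had 0 to 2 counts. The 14 pan-neuronal markers summed to 256.2 to 332.6 and 278.1 to 293.3 CPM, and the 10 choroid plexus markers to 104.6 to 131.9 and 121.9 to 145.3 CPM, both with overlapping groups. Of these, 2 of 9 tested pan-neuronal genes were called lower, and 2 of 5 tested choroid plexus genes higher, one of which was Otx2. Untested choroid plexus markers included Kcne2, with 10, 4 and 6 counts in WT and 1, 3 and 2 in knockout libraries. Aqp1 had 13, 6 and 13 in WT and 3, 7 and 11 in knockout libraries. Both lay below WT in CPM without overlap, and the other untested ones overlapped. Map2 made up most of the pan-neuronal sum, at 259.7 ± 43.2 CPM in WT and 242.4 ± 8.63 CPM in knockout libraries. The 10 retina markers summed to 14.8 to 15.1 and 15.6 to 18.98 CPM, its 3 tested genes were not called, and Rcvrn and Pou4f2 were at 0 in all libraries. Rlbp1 made up most of the retina sum, at 12.9 ± 0.64 CPM in WT and 15.9 ± 2.30 CPM in knockout libraries, with overlap. The 12 radial glia and astrocyte markers summed to 9998 to 10475 and 10963 to 11385 CPM, with 3 of 12 called higher and 1 lower. The 9 oligodendrocyte lineage markers summed to 121.1 to 131.9 and 131.9 to 142.5 CPM, with 1 of 7 tested called higher, and the 6 endothelial markers to 46.2 to 52.7 and 129.3 to 133.5 CPM. The endothelial sum was set by Kdr, which was called higher. Without Kdr the other 5 markers summed to 11.7 to 12.8 CPM in WT libraries and 4.85 to 5.46 CPM in knockout libraries. Flt1 made up most of that remainder, at 11.3 ± 0.65 CPM in WT and 3.81 ± 0.28 CPM in knockout libraries, and was called lower. Cdh5 went the other way, with 2, 4 and 5 counts in WT and 8, 26 and 13 in knockout libraries. Its CPM was higher in every knockout library than in any WT library, but it was too low to be tested. Pecam1 and Tek overlapped, and Cldn5 had at most 1 count. Kdr and Hdc were left out after their values had been seen. Rlbp1, Map2, Lhx4, Gh, Kcne2 and Aqp1 were likewise named after their values had been seen. The part of these shifts in the levels of the patterning factors was not tested.

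**Figure D4:**
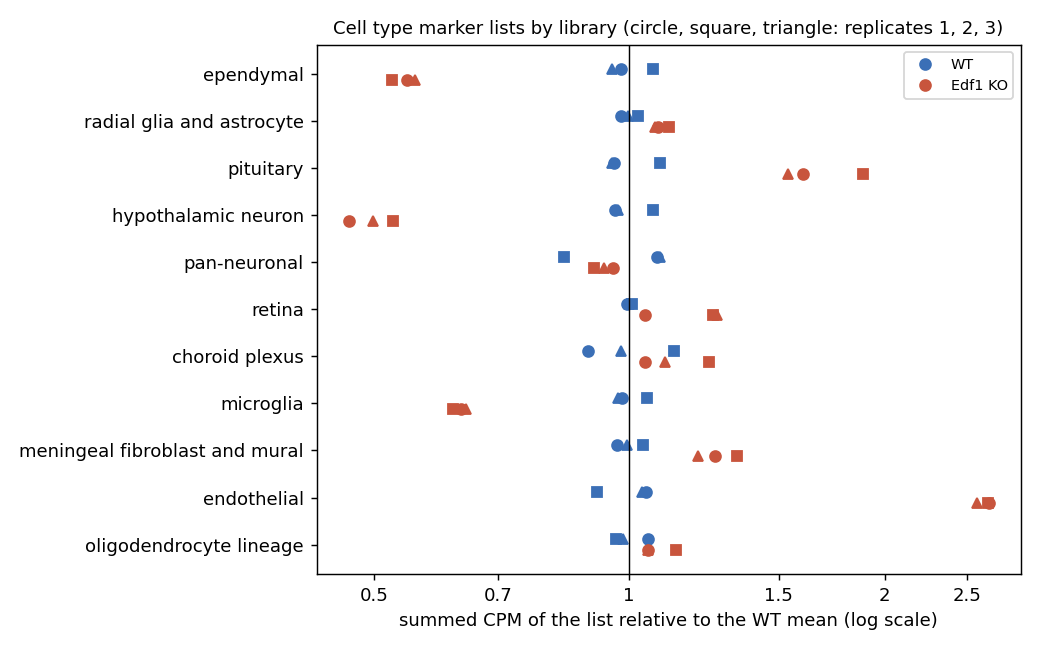
Summed CPM of each cell type marker list in every library, divided by the WT mean of that list, on a log axis. The ependymal and microglial lists lie lower in the knockout, the pituitary and fibroblast lists lie higher, and the pan-neuronal and choroid plexus lists overlap. The low hypothalamic neuron sum is set by Hdc and the high endothelial sum by Kdr. Without Hdc the former overlaps. Without Kdr the latter is lower in the knockout, and Flt1 makes up most of what remains. Rlbp1, whose libraries overlap, makes up most of the retina sum.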

How the data were processed

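RNA-seq read counts per gene symbol were used as deposited, as whole numbers with 1 column per library. The submitters' processing notes name FastQC 0.11.2, cutadapt 1.11, HISAT2 2.1.0 and the build GRCm38; the counting program, annotation and use of strand are not given in the sources used here. The table had 0 rows without a gene name and 0 unused columns.

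In R 4.3.3, low-count genes were filtered by filterByExpr (14243 stayed), and knockout was tested against WT with edgeR 4.0.16 (TMM scaling, quasi-likelihood test, no covariate, Benjamini-Hochberg adjustment over all tested genes, threshold 0.05). Standard errors are |log2 fold change| over the root of the F statistic. CPM were computed on TMM-scaled sizes of the tested genes, and log2 CPM with a prior count of 2. In simulated counts with 200 of 14243 genes changed 2-fold, the test recovered 92.0% of them, and 10.2% of its calls were false, above the nominal share of 0.05. In these libraries 3833 genes were called, and of the 6 factors called only Barhl2 changed more than 2-fold. The simulated shares therefore do not carry over to the calls reported here.

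The 10 factors, the lists and the markers were chosen from general knowledge with earlier results of these data known. Named from each list were up to 3 called genes per direction with the largest fold change, besides all measured paralogs, the tested neighbours and the genes most like the most abundant factor. Gene positions and exons came from GENCODE M21 and upstream windows, neighbours and their order from RefSeq, both on GRCm38. Motifs were chosen after the counts and sequences had been seen. The alternatives were DESeq2 size factors, library size alone, 2 other low-count filters, DESeq2 1.42.0, limma voom (limma 3.58.1), a block for replicate number, fits without each library and a threshold of 0.01. Replicates of a genotype differed by more than sampling noise (chi-square per degree of freedom 3.03 to 10.03). Single values of a few listed genes are not reported here.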

Additional observations from a re-analysis of the deposited data

How the results depend on the processing

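Of the 9 fitted patterning factors, 8 kept their direction under each alternative that fitted them and in all 6 fits that left out a library. The sign of En2 was not stable: it was -0.0022 by limma voom and ran from -0.073 to 0.12 over those 6 fits. The number of factors called higher was 6 under each scaling, filter, tool and the block, 4 to 6 without one library, and 4 at the threshold of 0.01. The factors were chosen on this contrast in the same libraries, so these counts describe the processing and are no test of the difference. Their values ran from 1.55 to 2.09 for Barhl2 and from 0.40 to 0.49 for Six3.

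Over all genes the threshold of 0.01 lowered the calls from 3833 to 2213, with 965 higher and 1248 lower, and the fits without one library gave 2658 to 4340 (higher 1204 to 2070, lower 1436 to 2270). Over the 5 lists of related genes, 13 to 19 were called higher and 1 to 3 lower without one library, and 1 lower at 0.01. In the thalamus list 1 to 2 were called higher and 0 to 1 lower without one library, and 1 and 0 at 0.01. In the midbrain list 1 was called higher without the low-count filter, by DESeq2, with the replicate block and at 0.01, and 1 to 2 without one library; 0 were called lower with library size alone and at 0.01, and 0 to 1 without one library. In the telencephalon list 0 to 2 were called higher and 1 to 3 lower without one library, and 1 was called lower with a mean of at least 50 counts and at 0.01. The cause was not tested, except that the threshold of 0.01 and the filter leave fewer calls or genes by construction. Edf1 stayed between -2.99 and -2.76. Of the neighbours near 0, Zfp644 ran from -0.035 to 0.076, Camkmt from -0.17 to 0.021, Fto from -0.022 to 0.052 and Vti1a from -0.10 to 0.0024 without one library.

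Among the patterning factors, Edf1, the neighbours and the named genes of the related lists, the replicate number as a block changed only the call of Otx1; it was not run for single marker genes. It called 4065 genes in all. Deviations from the group mean correlated between same-numbered libraries at 0.0693, 0.0604 and 0.0372, so no pairing was assumed. Depth limits Six6, Gbx2 and the low paralogs: 3 counts are 0.11 to 0.23 CPM in these libraries.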
